A study of Mus musculus with 4 samples.

Results

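The imprinted growth genes described here are 10 genes of the mouse heart, taken from the count table by symbol after their Entrez Gene identifiers had been matched: *H19*, *Dlk1*, *Meg3*, *Asb4*, *Mest*, *Gnas*, *Grb10*, *Plagl1*, *Peg3* and *Ndn*. They are 10 of the 24454 genes in the table, and all 10 were among the 14266 genes that passed the filter on low counts. The genes were chosen as imprinted genes of growth whose levels are known to decline after birth. That decline was not measured here, since all hearts were taken at P7. Earlier results of these data were known when the genes were chosen. RNA-seq was compared between 2 Ctrl libraries (WH7 and WH8) and 2 *miR-128*OE libraries (WH9 and WH10). The overexpressing mice carried *α-MHC*-tTA together with *miR-128*TetRE, a *miR-128* knock-in at the Rosa26 locus under a tetracycline-responsive promoter on a C57BL/6 background, and the Ctrl mice carried *miR-128*TetRE without *α-MHC*-tTA. The *α-MHC* promoter directs tTA to cardiomyocytes (CMs), and doxycycline in the diet holds the transgene off, so *miR-128* is raised in CMs once doxycycline is withdrawn. The withdrawal schedule of these hearts was not given in the sources used here. The transactivator was present only in *miR-128*OE hearts, so its part and that of *miR-128* cannot be told apart.

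In an imprinted gene, methylation laid down in the egg or the sperm leaves only one parental copy active, and several such genes usually share one imprinting control region. Many paternally expressed members promote fetal growth and many maternally expressed members restrain it, and most are turned down in the heart and other organs as growth slows after birth. The counts do not separate the parental copies, so every value below is the sum of both.

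The libraries held 8096870 to 14359838 counts, WH8 being the smallest, and 3 counts were taken as the floor of detection. This floor covers counting error only. The labels do not say whether libraries came from separate hearts, so p-values measure the spread between these libraries, which may be technical. The condition coincided with sex. *Xist* had 14543 and 11339 counts in WH7 and WH8 and 94 and 132 in WH9 and WH10, and the Y-linked *Ddx3y* had 13 and 7 counts against 1442 and 1768, so sex and *miR-128* cannot be told apart in any result. The 8 CM markers were all detected. Their summed level was 44422 and 47813 CPM, the count scaled to the size of the library, in WH7 and WH8. It was 53475 and 52708 CPM in WH9 and WH10. The mature *miR-128* is too short for such libraries. Reads on its precursor genes were few, with *Mir128-2* at 0 and 0 counts in Ctrl and at 2 and 10 in *miR-128*OE libraries and *Mir128-1* at 0 in all 4.

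The microRNA that separates the groups by design is *miR-128-3p*, whose mature sequence is the same from *Mir128-1* (chr1:128202404-128202424, plus strand of GRCm38) and *Mir128-2* (chr9:112118644-112118664, minus strand). It is shown first because its seed, bases 2 to 8 in capitals, sets the letters searched in the imprinted transcripts.
mmu-miR-128-3p: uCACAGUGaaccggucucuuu
RefSeq gave this sequence. The sense strand of GENCODE M21 transcripts was searched for CACTGTG and ACTGTGA, which overlap as CACTGTGA. For the 8 coding genes the longest 3′UTR among their coding transcripts was searched. For the noncoding *H19* and *Meg3* all exons of the longest transcript were searched. Matches were present in 5 of the 10 transcripts, those of *Dlk1*, *Meg3*, *Mest*, *Plagl1* and *Ndn*. Of the 8 coding genes, 4 had a match in the 3′UTR, beside 31.0% of the 13495 tested genes with an annotated 3′UTR. No match was found in *H19*, *Asb4*, *Gnas*, *Grb10* or *Peg3*. The 8-base match occurred only in *Dlk1* among these 10 transcripts and in 6.02% of all 3′UTRs. *Meg3* held 6 matches in 14548 bases of exons, a longer stretch than the 877 to 3614 bases of 3′UTR searched in the 8 coding genes. No rate of matches per length is given here, so this number has no background beside it. The matches of the called genes *Dlk1* (chr12:109460802-109460809) and *Mest* (chr6:30748450-30748456), and the first of *Meg3* (chr12:109546347-109546353), all on the plus strand, are shown with the match in capitals.
Dlk1: ttgaccactCACTGTGAaaagggct
Meg3: tcctggctcCACTGTGctcacctg
Mest: taaaaacaaACTGTGAcaaaaatg
*Dlk1* and *Meg3* fell in *miR-128*OE hearts and *Mest* rose, whereas *Plagl1* and *Ndn*, which also held matches, did not pass the test. Of the genes without a match, *H19* and *Asb4* fell, *Gnas* rose, and *Grb10* and *Peg3* did not pass the test. The *Mest* match lies at bases 1281 to 1287 of a 1296-base 3′UTR, so a 3′UTR that ended earlier would lack it. A match is a run of letters and does not show that the microRNA binds there.

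*miR-128*OE hearts had less RNA of 4 imprinted growth genes and more of 2. *Dlk1* was 2.47-fold, *Asb4* 2.35-fold, *Meg3* 1.81-fold and *H19* 1.54-fold lower, and *Mest* was 1.35-fold and *Gnas* 1.24-fold higher. *Grb10*, *Plagl1*, *Peg3* and *Ndn* did not pass the test. By edgeR's quasi-likelihood test at an adjusted p under 0.05, 4 of 10 were lower, where 15% of all tested genes were, and 2 of 10 were higher, where 16.5% were. The libraries of the conditions did not overlap for these same 6 genes, 4 of them lower, where 34.4% of all tested genes were, and 2 higher, where 33.7% were, so that 68.1% of all tested genes showed such separation. The median log2 fold change over the 10 genes was −0.08, beside −0.01 over all tested genes. Because the 10 genes were chosen with earlier results of these data known, these comparisons do not test them as a set. Values below are normalized counts, that is, counts scaled by TMM factors to one common library size, and fold changes are *miR-128*OE against Ctrl.

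**Figure D1:**
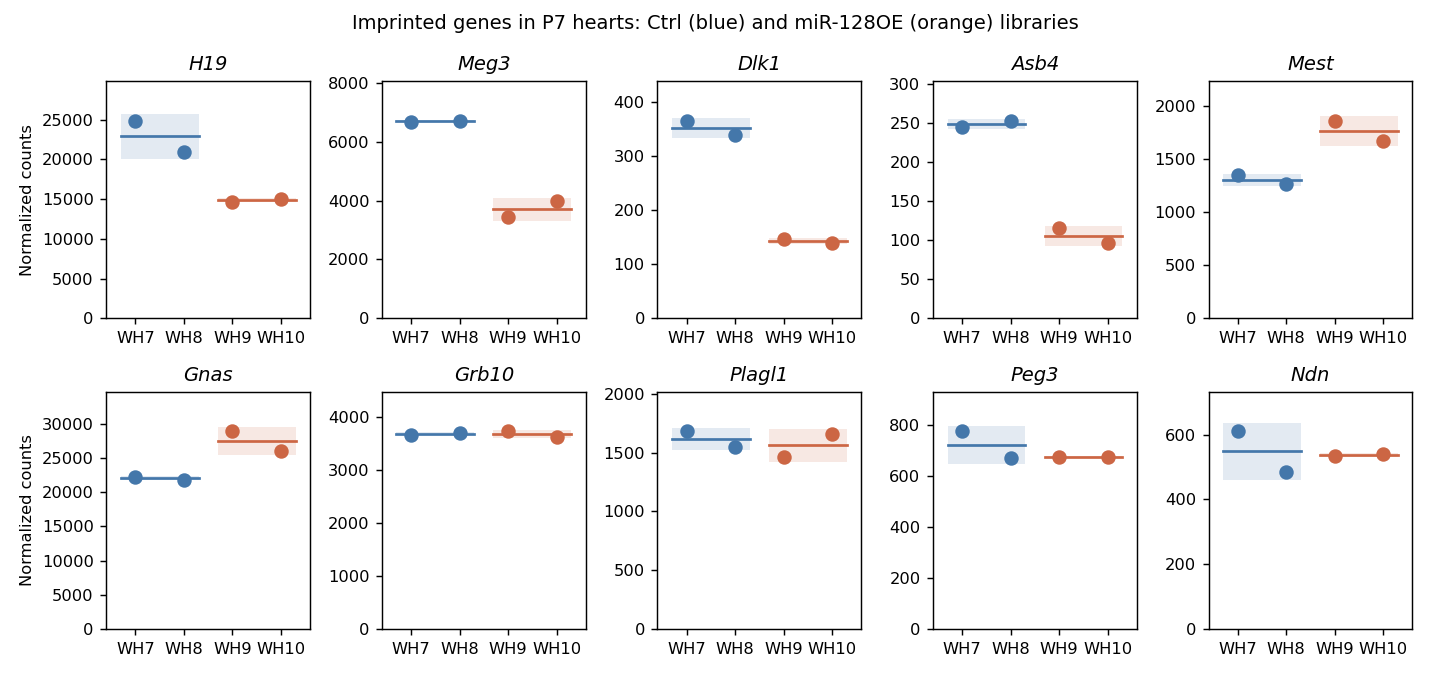
Normalized counts (y axis, from 0, with its own scale in each panel) of the 10 imprinted genes in each of the 4 libraries (x axis), with the line at the mean and the band at ± SD of the 2 libraries per condition. The *miR-128*OE libraries lie below both Ctrl libraries for *H19*, *Meg3*, *Dlk1* and *Asb4* and above them for *Mest* and *Gnas*, and the ranges of the conditions overlap for the other 4 genes.

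*Dlk1* (Entrez 13386, chr12:109452823-109463336 of GRCm38, plus strand) encodes a membrane protein with EGF-like repeats related to Notch ligands and is expressed from the paternal copy. It had 365 and 338 normalized counts in WH7 and WH8, and 147 and 139 in WH9 and WH10. The conditions were far apart and libraries of one condition differed little. The mean fell from 351 ± 19.2 (SD, n = 2) to 143 ± 5.48 (SD, n = 2), a log2 fold change of −1.30 (SE 0.13, adjusted p = 0.000165 by the quasi-likelihood test of edgeR after Benjamini-Hochberg adjustment over all tested genes). This decrease and that of *Asb4* (−1.23) lay within their errors of each other and were the largest among the 10 genes. The call held under every other setting tried and without any one library, with log2 fold changes from −1.40 to −1.23.

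*Meg3* (Entrez 17263, chr12:109541001-109571726, plus strand) is a long noncoding RNA made from the maternal copy of the same cluster. It had 6682 and 6720 normalized counts in Ctrl libraries against 3430 and 3983 in *miR-128*OE libraries. The Ctrl libraries were nearly equal, and both *miR-128*OE libraries were well below them. The log2 fold change was −0.85 (SE 0.09, edgeR adjusted p = 0.000286). Of the other maternal noncoding RNAs of this cluster, *Rian*, which hosts small nucleolar RNAs, had 1146 and 1258 normalized counts in Ctrl libraries against 1062 and 1120 in *miR-128*OE libraries. The *Rian* log2 fold change of −0.14 (95% interval −0.33 to 0.05) did not pass the test. *Mirg*, the host of many microRNAs, had a log2 fold change of 0.08 (95% interval −0.48 to 0.64). The paternal *Rtl1*, a gene derived from a retrotransposon, had 5 to 12 counts and *Dio3*, which inactivates thyroid hormone, had 0 or 1 count per library, and neither was tested.

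Ratios inside this cluster lay apart in the conditions. The log2 ratio of *Rian* to *Meg3* was −2.54 and −2.42 in Ctrl against −1.69 and −1.83 in *miR-128*OE libraries. The log2 ratio of *Dlk1* to *Meg3* was −4.19 and −4.31 in Ctrl against −4.55 and −4.84 in *miR-128*OE libraries. For neither ratio did the conditions overlap. With 2 libraries against 2, an exact permutation test cannot give a two-sided p below 0.333, so the ratios are given as values alone.

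*H19* (Entrez 14955, chr7:142575529-142578143, minus strand), a maternally expressed long noncoding RNA that restrains growth, shares its imprinting control region with the paternally expressed growth factor gene *Igf2*. It had 24890 and 20926 normalized counts in WH7 and WH8, and 14655 and 15058 in WH9 and WH10. Neither *miR-128*OE library reached the level of a Ctrl library, and the Ctrl libraries differed more from each other than the *miR-128*OE libraries did. The mean fell from 22908 ± 2803 (SD, n = 2) to 14857 ± 285 (SD, n = 2). The log2 fold change was −0.62 (SE 0.10, edgeR adjusted p = 0.00206). Without WH9 the adjusted p was 0.051, with the same direction. *H19* is also the precursor of *miR-675*, whose hairpin lies in its exon, and the mature arms are shown with the seed in capitals as the products that this transcript can give (chr7:142577112-142577133 and chr7:142577078-142577099, minus strand).
mmu-miR-675-5p: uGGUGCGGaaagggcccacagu
mmu-miR-675-3p: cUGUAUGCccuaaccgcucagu
*Mir675* had 0 counts in all 4 libraries, so its level was not measured.

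*Igf2* moved beside *H19*, with 32005 and 27344 normalized counts in Ctrl libraries against 17851 and 18479 in *miR-128*OE libraries, and the log2 fold change was −0.71 (SE 0.10, edgeR adjusted p = 0.00104). In GENCODE M21, 62.8% of the exon bases of *Igf2* are shared with another gene model on the same strand, and how reads there were counted was not given in the sources used here. The log2 ratio of *Igf2* to *H19* differed little between conditions, though without overlap, at 0.36 and 0.39 in Ctrl libraries against 0.28 and 0.30 in *miR-128*OE libraries. In the adjoining *Kcnq1* cluster, *Kcnq1ot1*, a paternally expressed antisense RNA that silences its neighbors in cis, had 7931 and 8350 normalized counts in Ctrl libraries against 3347 and 4115 in *miR-128*OE libraries, and the log2 fold change was −1.13 (edgeR adjusted p = 0.00015), or −0.68 with an offset for GC content and length (edgeR adjusted p = 0.00189). *Cdkn1c*, the cell cycle inhibitor that it silences, had a log2 fold change of 0.03 (95% interval −0.23 to 0.29), and the potassium channel gene *Kcnq1* had 0.29 (95% interval 0.04 to 0.55, edgeR adjusted p = 0.0804). *Tssc4*, *Osbpl5* and *Slc22a18*, other genes of this cluster, had log2 fold changes of 0.16, 0.16 and −0.13 and did not pass the test.

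*Asb4* (Entrez 65255, chr6:5383386-5433022, plus strand) encodes an ankyrin repeat protein with a SOCS box that brings substrates to a Cullin 5 ubiquitin ligase. It had 244 and 253 normalized counts in Ctrl libraries against 115 and 96.7 in *miR-128*OE libraries. Both *miR-128*OE libraries were far below both Ctrl libraries, for a log2 fold change of −1.23 (SE 0.15, edgeR adjusted p = 0.000504), and the call held under every other setting tried and without any one library. The genes of its imprinted cluster on chromosome 6 moved in different directions. *Ppp1r9a*, which encodes the actin-binding neurabin 1, had 1901 and 2230 normalized counts in Ctrl libraries against 1142 and 1237 in *miR-128*OE libraries, with a log2 fold change of −0.79 (edgeR adjusted p = 0.000462). *Sgce*, which encodes ε-sarcoglycan, was higher, with a log2 fold change of 0.33 (edgeR adjusted p = 0.0328), a call lost without WH9 (0.24) or WH10 (0.0987), by DESeq2 (0.131), with upper-quartile factors (0.0575) and with total counts (0.106). *Peg10*, a gene derived from a retrotransposon that starts beside *Sgce*, had a log2 fold change of 0.17 (95% interval −0.26 to 0.60), *Casd1* had 0.18 and *Tfpi2* 0.09, and these 3 did not pass the test. The log2 ratio of *Peg10* to *Sgce* was −2.23 and −2.07 in Ctrl against −2.40 and −2.24 in *miR-128*OE libraries, with WH7 and WH10 nearly equal.

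*Mest* (Entrez 17294, chr6:30723547-30748465, plus strand), also called *Peg1*, encodes a protein of the α/β-hydrolase fold and is expressed from the paternal copy, and mice that lack that copy are small. It had 1345 and 1262 normalized counts in WH7 and WH8, and 1862 and 1667 in WH9 and WH10. Neither Ctrl library reached the level of a *miR-128*OE library. The log2 fold change was 0.43 (SE 0.09, edgeR adjusted p = 0.00529), and without WH9 the adjusted p was 0.0912. *Copg2*, which encodes a coatomer subunit on the opposite strand, shares 912 exon bases with *Mest*, or 23.1% of its exon bases. It had 396 and 454 normalized counts in Ctrl libraries against 542 and 527 in *miR-128*OE libraries, a log2 fold change of 0.34 (edgeR adjusted p = 0.0366). That call was lost without WH7 (0.119), WH9 (0.201) or WH10 (0.13), by DESeq2 (0.124), with upper-quartile factors (0.0577) and with total counts (0.111). Whether strand was used in the counting is not given in the sources used here, so reads in the shared stretch cannot be assigned to one of the pair. The log2 ratio of *Mest* to *Copg2* overlapped between conditions. *Klf14*, a zinc finger gene of the same region, had means of 8.81 and 15.3 normalized counts in Ctrl and *miR-128*OE hearts, and its log2 fold change of 0.76 did not pass the test.

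*Gnas* (Entrez 14683, chr2:174284320-174346744, plus strand) encodes the stimulatory G protein subunit Gsα, which couples receptors such as the β-adrenergic receptors to adenylyl cyclase, and its locus also holds imprinted transcripts from other promoters. It had 22279 and 21839 normalized counts in Ctrl libraries against 28898 and 26010 in *miR-128*OE libraries. The conditions did not overlap, but the *miR-128*OE libraries differed from each other by more than the Ctrl libraries did. The log2 fold change was 0.32 (SE 0.09, edgeR adjusted p = 0.0286). This call was the least firm of the 6, since it was lost without WH9 (adjusted p = 0.295), without WH10 (0.0822), with upper-quartile factors (0.0612) and with total counts (0.0762). In GENCODE M21, *Nespas* and another model on the opposite strand share 8.8% and 13.1% of its exon bases. Gene counts do not tell the Gsα transcript from the other transcripts of the locus.

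**Figure D2:**
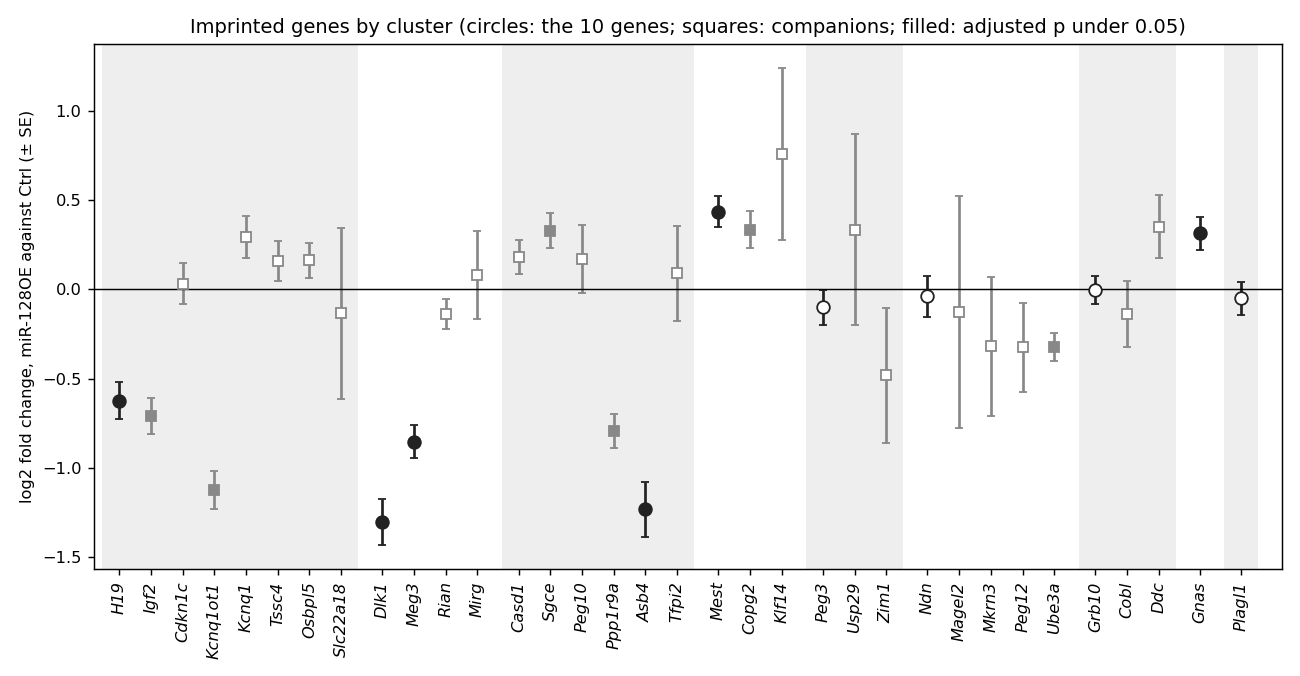
Log2 fold change of *miR-128*OE against Ctrl (y axis, bars ± standard error) for the 10 imprinted genes (circles) and the tested genes of their imprinted clusters (squares), ordered by cluster along the x axis with alternate clusters shaded and with filled symbols for an adjusted p under 0.05. *H19* and *Igf2* lie side by side at −0.62 and −0.71, whereas *Meg3* at −0.85 lies apart from *Rian* at −0.14, and *Asb4* at −1.23 apart from *Sgce* at 0.33.

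For the remaining 4 genes the conditions overlapped. *Grb10* (Entrez 14783, chr11:11930508-12038683, minus strand), an adaptor that binds the insulin and IGF1 receptors and restrains growth, had 3662 and 3704 normalized counts in Ctrl libraries against 3731 and 3620 in *miR-128*OE libraries, and the log2 fold change was −0.003 with a 95% interval from −0.18 to 0.17, the narrowest interval of the 10 genes. *Cobl*, an actin nucleator, and *Ddc*, an amine-synthesis enzyme, flank *Grb10* and had log2 fold changes of −0.14 and 0.35 that did not pass the test.

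*Plagl1* (Entrez 22634, chr10:13060504-13131694, plus strand), also called *Zac1*, encodes a zinc finger transcription factor that can arrest the cell cycle. It had 1681 and 1548 normalized counts in Ctrl libraries against 1458 and 1661 in *miR-128*OE libraries, a log2 fold change of −0.05 (95% interval −0.25 to 0.15). *Peg3* (Entrez 18616, chr7:6703892-6730431, minus strand), a paternally expressed zinc finger gene, had 776 and 670 in Ctrl libraries against 677 and 676 in *miR-128*OE libraries, with a log2 fold change of −0.10 (95% interval −0.32 to 0.12). The Ctrl libraries of *Peg3* differed more from each other than from the *miR-128*OE libraries. *Ndn* (Entrez 17984, chr7:62346569-62350262, plus strand) encodes necdin, a MAGE family protein that binds E2F1 and p53. It had 611 and 486 normalized counts in Ctrl libraries against 534 and 541 in *miR-128*OE libraries, a log2 fold change of −0.04 (95% interval −0.30 to 0.22). The intervals of these 4 genes together reach from −0.32 to 0.22. For each gene, changes within its own interval cannot be told from no change here.

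The imprinted companions of *Peg3* and *Ndn* were mostly near the limit of the counts. *Usp29* and *Zim1* beside *Peg3*, and *Magel2* and *Mkrn3* beside *Ndn*, had group means from 7.03 to 22.5 normalized counts and did not pass the test. *Peg12* had a log2 fold change of −0.33 (95% interval −0.89 to 0.24). *Ube3a*, a ubiquitin ligase gene imprinted in neurons and read from both copies elsewhere, was lower, with 1514 and 1599 normalized counts in Ctrl libraries against 1273 and 1213 in *miR-128*OE libraries (log2 fold change −0.32, edgeR adjusted p = 0.0136, 0.11 without WH9 and 0.168 without WH10). *Snrpn*, *Snurf*, *Phlda2* and *Zim2* are listed at 0 in all 4 libraries. The 4 globin genes, which blood in a heart carries, are also listed at 0, so a 0 in this table is not read as absence of the RNA.

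Over all imprinted clusters, 40 of the 53 other imprinted genes in the table passed the filter, with 8 higher, 6 lower and 26 not past the test, and a median log2 fold change of 0.06. Shares of 16.5% higher and 15% lower over all tested genes are close to these counts, which are therefore no result about imprinted genes as a group. Fewer of the 40 genes passed without WH9 or without WH10, where a single *miR-128*OE library is left. Shares over all tested genes in those fits are not given here, so the loss cannot be read as particular to the imprinted genes. Among those outside the clusters above, the *Igf2r* cluster on chromosome 17 held changes of both signs. *Igf2r*, whose product clears IGF2 from the cell surface, had 3098 and 3190 normalized counts in Ctrl libraries against 3942 and 3730 in *miR-128*OE libraries, a log2 fold change of 0.29 (edgeR adjusted p = 0.0216). *Airn*, the paternal antisense RNA that silences *Igf2r* in cis, had 335 and 332 normalized counts in Ctrl libraries against 230 and 257 in *miR-128*OE libraries, a log2 fold change of −0.45 (edgeR adjusted p = 0.0184). *Slc22a3*, an organic cation transporter gene of the same cluster, rose from low levels, with 9.14 and 8.48 against 28.7 and 33.6 normalized counts (log2 fold change 1.80, edgeR adjusted p = 0.00849). The amino acid transporter gene *Slc38a4* was higher by 0.53 on the log2 scale, *Blcap* by 0.54, the noncoding *Peg13* by 0.41 and *Zdbf2* by 0.90. The phosphoinositide phosphatase gene *Inpp5f* had a log2 fold change of −0.41 and was lower. Adjusted p-values of these 5 genes from the edgeR test ran from 0.00246 to 0.0407. The calls of *Igf2r* (0.207 and 0.0894), *Airn* (0.192 and 0.0699), *Slc22a3* (0.0572 and 0.0872), *Peg13* (0.0664 and 0.0933) and *Inpp5f* (0.222 and 0.145) were lost without WH9 and without WH10, in that order of adjusted p. *Zdbf2* was lost without WH9 (0.238) and *Inpp5f* also without WH8 (0.156). By DESeq2 the adjusted p was 0.0936 for *Airn*, 0.0509 for *Slc22a3*, 0.111 for *Inpp5f* and 0.0608 for *Zdbf2*, so these 4 calls were lost there too. *Igf2r* was lost with total counts (log2 fold change 0.19, adjusted p = 0.083) and *Inpp5f* with the offset for GC content and length (0.0762).

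The coding genes nearest to the imprinted genes, and not on the imprinted lists compiled here, were read for the chromosomal surroundings. Those lists may not be complete, so a neighbor may itself be imprinted. Of the 54 nearest tested coding genes, 3 on each side, 14 were higher and 10 lower, beside 16.5% and 15% of all tested genes, and the median log2 fold change was −0.06. The single nearest gene on each side gave 18 genes, of which 6 were higher and 1 lower. *Asb4* was lower, whereas 4 of its 6 neighbors were higher and 0 were lower by edgeR, with 0 lower also at an unadjusted p under 0.05 and by DESeq2. *Pon2* and *Pdk4*, the nearest on each side and named after their values were seen, had log2 fold changes of 0.57 and 0.61. *Pdk4* encodes a kinase that closes pyruvate dehydrogenase. *Grb10*, which did not pass the test, had 4 of 6 neighbors lower by edgeR, 5 at an unadjusted p under 0.05 and 1 by DESeq2. Shares over all tested genes at an unadjusted p or by DESeq2 are not given here. The counts at those settings in this paragraph therefore have no background beside them. Its 3 neighbors at higher coordinates start 4570 to 5041 kb away, and every neighbor of *Ndn* starts about 1540 kb or more away. Among all neighbors, *4930512M02Rik* near *Grb10* (−1.83), *Fuca2* near *Plagl1* (0.76) and *Sem1* near *Asb4* (0.47) had the smallest p-values. *Dlk1* and *Meg3* share their 6 neighbors, of which 1 was higher and 1 lower, with log2 fold changes from −0.56 to 0.27. Of the 6 neighbors of *Peg3*, 0 passed the edgeR test, 2 were lower at an unadjusted p under 0.05, and 0 passed by DESeq2.

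**Figure D3:**
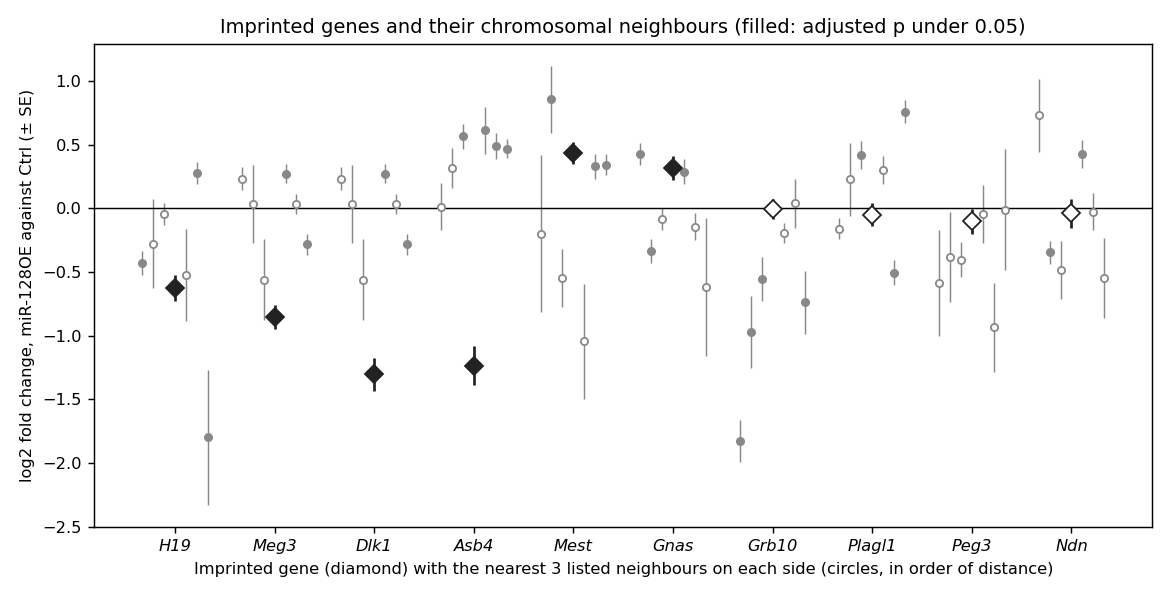
Log2 fold change of *miR-128*OE against Ctrl (y axis, bars ± standard error) for each imprinted gene (diamond) and the nearest 3 tested coding genes on each side (circles, in order of distance along the x axis), with filled symbols for an adjusted p under 0.05. *Asb4* and *Dlk1* lie below all of their neighbors, whose log2 fold changes start at 0.01 and −0.56.

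Levels of different genes were compared as CPM per kilobase of merged exons. In Ctrl hearts *H19* stood highest at 791 ± 96.8 (SD, n = 2), above 99.8% of all tested genes, followed by *Gnas* at 168 ± 2.36. *Grb10* at 34.4 ± 0.283, *Meg3* at 31.5 ± 0.127 and *Mest* at 28.1 ± 1.26 formed the next group, ahead of *Plagl1* at 17.5 ± 1.02 and *Ndn* at 12.6 ± 2.03. *Asb4* at 5.37 ± 0.135, *Dlk1* at 5.28 ± 0.288 and *Peg3* at 4.61 ± 0.480 were lowest. *Asb4* and *Dlk1* did not differ beyond their spread. In *miR-128*OE hearts *H19* was at 513 ± 9.83 and *Gnas* at 208 ± 15.5, and *Mest* at 38.0 ± 2.97 stood next to *Grb10* at 34.3 ± 0.731. *Meg3* at 17.4 ± 1.84 did not differ beyond its spread from *Plagl1* at 16.9 ± 1.56, and *Asb4* at 2.29 ± 0.277 and *Dlk1* at 2.14 ± 0.0823 were below *Peg3* at 4.31 ± 0.00447. Several steps of this order depend on the length used. Per kilobase of the longest transcript, *Peg3* at 7.07 was already above *Asb4* at 6.43 and *Dlk1* at 6.41 in Ctrl hearts, where *Mest* at 41.6 was above *Meg3* at 39.1. In *miR-128*OE hearts on that scale, *Gnas* at 591 was above *H19* at 552, *Grb10* at 61.7 above *Mest* at 56.2, and *Plagl1* at 25.2 above *Meg3* at 21.6.

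**Figure D4:**
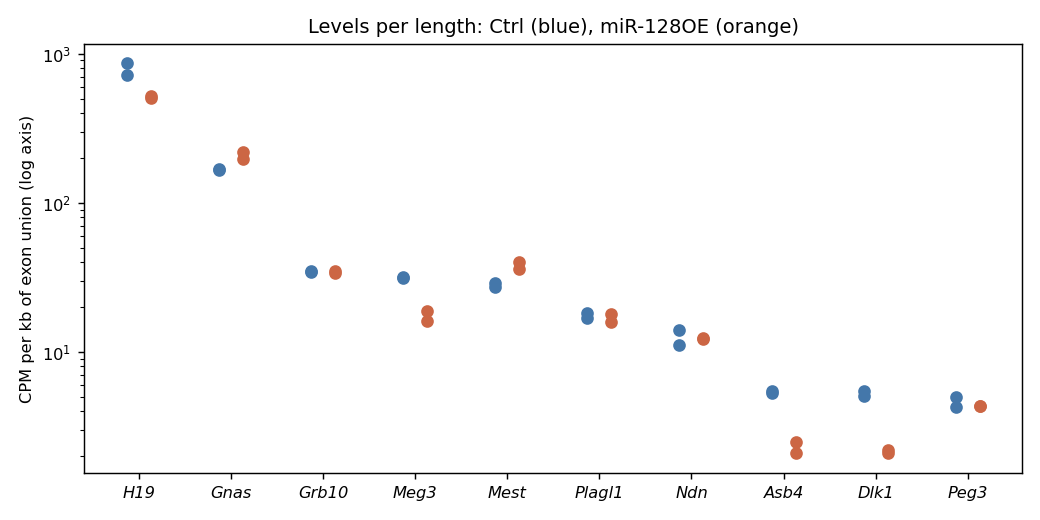
CPM per kilobase of merged exons (y axis, log scale) of the 10 imprinted genes (x axis, in order of the Ctrl mean) with a point for each of the 2 Ctrl and 2 *miR-128*OE libraries. *H19* and *Gnas* lie above the other 8 genes in all libraries, and *Asb4* and *Dlk1* drop from means of 5.37 and 5.28 in Ctrl to 2.29 and 2.14 in *miR-128*OE libraries.

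The 10 genes together took 0.552% and 0.505% of all counts in WH7 and WH8, and 0.451% and 0.443% in WH9 and WH10. *H19* and *Gnas* made up 74.1% to 78.5% of the counts of the 10 genes in every library. The share of *H19* alone was 0.220% and 0.183% in Ctrl against 0.119% and 0.125% in *miR-128*OE libraries, whereas that of *Gnas* was 0.197% and 0.191% against 0.235% and 0.215%. *H19* and *Gnas* thus drew similar numbers of reads in Ctrl libraries, and *Gnas* drew more than *H19* in both *miR-128*OE libraries.

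**Figure D5:**
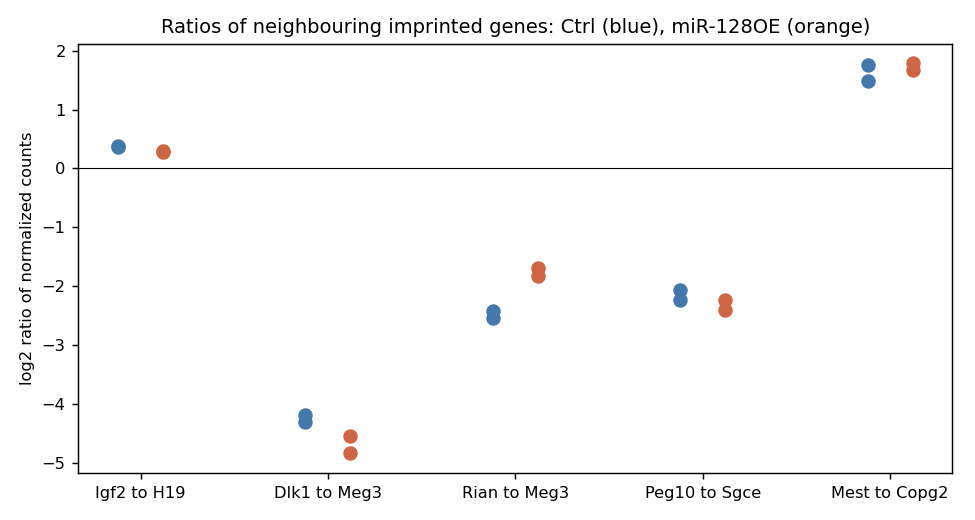
Log2 ratio of normalized counts (y axis) for 5 pairs of neighboring imprinted genes (x axis), with a point for each of the 2 Ctrl and 2 *miR-128*OE libraries. The *Rian* to *Meg3* ratio is higher in both *miR-128*OE libraries, the *Dlk1* to *Meg3* ratio is lower in both, and the *Igf2* to *H19* ratio lies between 0.28 and 0.39 in all 4.

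Proteins that maintain imprints or act with the imprinted genes were counted from lists compiled by symbol. Of 10 tested factors that copy or guard methylation at imprinted regions, 6 were lower and 0 were higher by edgeR, with a median log2 fold change of −0.33. At an unadjusted p under 0.05, 7 were lower and 0 higher, and by DESeq2 5 were lower and 0 higher. Over all tested genes, 15% were lower and 16.5% higher by edgeR, the shares to read beside each edgeR count of this paragraph. Such shares at an unadjusted p or by DESeq2 are not given here. *Smchd1*, a chromosomal silencing protein, had a log2 fold change of −0.53, *Uhrf1*, which guides the maintenance methyltransferase to new DNA, −0.50, and *Dnmt1*, that methyltransferase, −0.41 (edgeR adjusted p = 0.00352, 0.00565 and 0.00783). *Uhrf1* and *Dnmt1* are also genes of dividing cells, and of 10 proliferation markers 7 were lower and 0 higher, by adjusted and unadjusted p and by DESeq2 alike, with *Mki67* at −1.15. The summed level of the proliferation markers was 535 and 709 CPM in Ctrl libraries against 372 and 367 in *miR-128*OE libraries. The part of dividing cells in the levels of *Uhrf1*, *Dnmt1* or the other factors was not tested. Of 8 tested regulators of fetal growth that are not imprinted, 3 were lower, namely *Igf2bp2* (−0.72), *Igf2bp1* (−0.91) and *Igf2bp3* (−0.40), which encode RNA-binding proteins of *Igf2* and *H19* transcripts, and 1 was higher, *E2f3* (0.46). By DESeq2, 1 of the 8 was lower and 0 were higher. *Igf2bp3* was named after its value was seen.

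Receptors and partners of the imprinted products numbered 17, of which 3 were higher and 3 lower (median log2 fold change −0.01), shares near the 16.5% and 15% of all tested genes. *Notch2*, a receptor of the family to which *Dlk1* is related, had 847 and 906 normalized counts in Ctrl libraries against 575 and 564 in *miR-128*OE libraries (log2 fold change −0.62). *Igf1r*, the receptor through which IGF2 signals and to which GRB10 binds, had 1769 and 1747 against 1239 and 1232 (log2 fold change −0.51). *Eloc*, an elongin of the ligase complex that ASB4 joins, had 1023 and 930 against 1318 and 1311 (log2 fold change 0.43). The edgeR adjusted p-values of these 3 genes were 0.000925, 0.00125 and 0.00502.

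The heart holds fibroblasts, vessel cells and epicardium beside CMs. In whole hearts, fewer cells of a type and less RNA per cell cannot be told apart. Of 8 CM markers, 3 were higher and 2 lower by edgeR and by DESeq2 alike. Their summed levels were 44422 and 47813 CPM in Ctrl against 53475 and 52708 in *miR-128*OE libraries. Over all tested genes, 16.5% were higher and 15% lower by edgeR, the shares to read beside the edgeR counts of this paragraph. Such shares at an unadjusted p or by DESeq2 are not given, so those counts have no background beside them. Of 8 fibroblast markers, 1 was higher and 0 lower by edgeR and by unadjusted p, and 0 passed by DESeq2. Their summed level was 9465 and 6042 CPM in Ctrl against 8280 and 9010 in *miR-128*OE libraries. Of 8 mural cell markers, 3 were higher and 1 lower, with summed levels of 2058 and 1964 against 2513 and 2810 CPM. Of 6 epicardial markers, 0 passed the edgeR test or DESeq2 and 1 was higher and 1 lower at an unadjusted p under 0.05, with summed levels of 195 and 129 against 163 and 148 CPM, and of 8 endothelial markers 2 were higher and 1 lower (1532 to 1544 CPM against 1603 to 1697). The part of these cell types in the levels of the imprinted genes was not tested.

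Markers of tissue around the heart were present at low levels and some of them moved with the conditions. The edgeR counts here stand beside 16.5% higher and 15% lower over all tested genes. For the counts by DESeq2 or at an unadjusted p, such shares are not given here. Of 4 tested brown fat markers, 3 were higher in *miR-128*OE hearts by edgeR and 1 by DESeq2. Their summed levels were 33.2 and 33.4 CPM in Ctrl libraries against 71.4 and 54.3 in *miR-128*OE libraries. *Ucp1*, the uncoupling protein of brown fat, had 51.2 and 4.24 normalized counts in Ctrl libraries against 250 and 159 in *miR-128*OE libraries. Of 4 Schwann cell markers 1 was higher and 1 lower, of 2 tested erythroid markers 1 was higher, and of 3 tested skeletal muscle, 2 liver, 2 thymus and 8 macrophage markers 0 passed the test by edgeR or DESeq2. At an unadjusted p under 0.05, 1 liver marker was higher and 2 macrophage markers were lower. The part of these tissues in the levels of *Mest*, *Gnas* or any other imprinted gene was not tested.

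Among the noncoding imprinted RNAs named above, *H19*, *Meg3*, *Kcnq1ot1* and *Airn* were lower, *Peg13* was higher, and *Rian* and *Mirg* did not pass the test. Of the 560 tested long noncoding genes outside the imprinted lists, 113 were lower and 39 higher by edgeR. Over all tested genes, 15% were lower and 16.5% higher. This class was counted after the values above were seen. Its median log2 fold change was −0.27, against −0.01 for all tested genes. Fold changes also varied with transcript length, with a median of 0.10 in the fifth of genes with the shortest transcripts and −0.11 in the fifth with the longest. By average level, the median was −0.25 in the lowest of 5 equal bins of genes and 0.10 in the highest. *Asb4* and *Dlk1*, which had the lowest average counts of the 10 genes, were in bins 2 and 3 from the bottom, where the medians were −0.10 and 0.01. With an offset for GC content and length, *H19*, *Meg3*, *Dlk1* and *Asb4* were still lower and *Mest* and *Gnas* still higher by the edgeR test. The share of the class or of length in the lower noncoding imprinted RNAs was not tested.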

How the data were processed

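Total RNA from mouse hearts at P7 was sequenced in 2 Ctrl and 2 *miR-128*OE libraries. Low-quality reads were removed, reads were aligned to mm10 with TopHat2 and reads on known genes were counted with Bioconductor packages, and the authors deposited raw counts per gene and library. The gene models, strand handling and rule for reads that fit several genes are not given in the sources used here, so overlapping or antisense genes are uncertain. Of 24454 Entrez Gene identifiers, 24381 had a symbol in GENCODE M21 or RefSeq of GRCm38.

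Genes passing filterByExpr of edgeR 4.0.16 (R 4.3.3; minimum count 10, minimum total 15) were fitted with TMM factors and the quasi-likelihood test, with Benjamini-Hochberg adjustment over 14266 genes and a threshold of 0.05. Standard errors (SE) were taken as the absolute log2 fold change over the root of F, and 95% intervals use the fit's degrees of freedom. On simulated counts with few changed genes, unadjusted p-values behaved as nominal, but the share of false calls was above the nominal threshold. In the data 31.5% of all tested genes were called, so the simulation does not give the share of false calls there. Levels per length used merged exons of GENCODE M21. Library totals were 8096870 to 14359838 counts.

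The 10 imprinted genes and all lists were chosen with earlier results of these data known. All 10 are named with every library; of other imprinted genes, those past the threshold or in the same clusters; of other lists, at most 3 with the smallest p-value, unless stated. Alternatives were other size factors, tests (DESeq2 1.42.0 among them), filters, a 1.5-fold threshold, autosomal genes alone, a GC and length offset (loess, span 0.5) and each library left out. Where a library is left out, the lone library of its group is taken to vary like the other group. Hearts at P1 and P28 were not analysed here.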

Additional observations from a re-analysis of the deposited data

How the results depend on the processing

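*Dlk1* and *Asb4* kept their call under all 15 alternatives. The number of the 10 imprinted genes that were higher went from 2 to 1 with upper-quartile factors, to 1 with total counts and to 0 at a 1.5-fold threshold, and it was 0 to 2 when a library was left out. The number that were lower went from 4 to 2 at a 1.5-fold threshold, where *H19* and *Meg3* (adjusted p = 0.0574) were lost, and was 3 to 4 when a library was left out. Over the 10 genes, 140 values kept their side of the threshold and 10 calls were lost with their direction kept. Of the other imprinted genes, 8 were higher, and this number went to 5 with total counts, 4 with DESeq2 and 0 at a 1.5-fold threshold. It rose or fell when a library was left out. The number lower went from 6 to 1 at a 1.5-fold threshold, and it fell or stayed the same when a library was left out. Shares of all tested genes called under each alternative are not given here. These counts, and those of the 10 genes, therefore do not set imprinted genes apart from other genes. With total counts, the median over all tested genes was −0.11 in place of −0.01 on the log2 scale. The share of lower neighbors went from 18.5% to 5.56% with the nearest gene on each side. With the 8-base match in place of the 7-base matches, 1 transcript in place of 5 held a match. The cause of these differences was not tested. No paired analysis was possible because the labels give the libraries no shared replicate numbers. With 2 libraries per condition and *miR-128*, tTA and sex on the same side, these results compare these libraries.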
